A study of Mus musculus with 53 samples.

Results

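The comparison described here sets TA3 WGD- tumours grown in A/J mice against the same tumours grown in NSG mice, all under YM-155. It rests on 6 libraries, 3 per host, of the 53 libraries of the series, and the members were taken by their titles. TA3 Hauschka is a mouse mammary tumour line that arose in strain A, and WGD- marks the form without whole genome doubling. The hosts were females aged 6 weeks, the cells were placed in Matrigel in an inguinal fat pad, and treatment lasted 14 days. The A/J hosts are immunocompetent inbred mice. The hosts titled NSG are given in the growth protocol as a NOD.Cg strain with the alleles Prkdcscid and Il2rgtm1Wjl that also carries the transgene set Tg(CMV-IL3,CSF2,KITLG)1Eav, and its substrain code is MloySzJ. That strain carries the scid mutation of Prkdc and a disrupted Il2rg, and a CMV promoter drives transgenes for the human cytokines IL-3, GM-CSF and stem cell factor. It lacks mature T, B and NK cells but keeps myeloid cells, so the hosts differ in background, in lymphocytes and in human cytokines at once, and these cannot be told apart. YM-155 is a compound that lowers survivin, the protein Birc5 encodes. Vehicle-treated WGD- tumours in both hosts, and YM-155-treated WGD+ tumours in both hosts (the form with whole genome doubling), each 3 libraries a group, serve as reference comparisons.

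The genotype field of the labels reads WGD+ for all 6 compared libraries, against their titles, as it disagrees with the title in 12 of the 24 libraries of the experiment. Whether each replicate came from its own animal is not stated, and the p-values then rest on the spread of the libraries alone, which may be technical. The A/J libraries held 6.56, 6.68 and 7.75 M assigned reads and the NSG libraries 6.56, 6.61 and 6.58 M. In the whole experiment, 2 libraries stood apart from the rest, both A/J WGD- vehicle (replicates 1 and 2) and neither among the 6. The median SD over genes was 0.227 in the A/J group and 0.187 in the NSG group. A/J replicate 1 correlated best with A/J replicate 3, but replicate 2 correlated best with an A/J vehicle library and replicate 3 with an NSG YM-155 library. Of the NSG libraries, replicate 1 correlated best with an NSG vehicle library and the other 2 with each other.

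As background, interferon gamma is made mainly by activated T cells and NK cells. It acts on tumour cells and macrophages alike, and it raises guanylate binding proteins, chemokines such as Cxcl9, and the machinery of antigen presentation. In that machinery the immunoproteasome cuts peptides, the TAP transporter moves them into the endoplasmic reticulum, and MHC class I molecules with beta-2 microglobulin carry them to the surface. MHC class II molecules serve macrophages, dendritic cells and B cells and can be induced in other cells.

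Levels are given as log2(CPM + 1), and a difference is the A/J mean minus the NSG mean on that scale, with the standard error (SE) of the fit; it understates the change of low genes. Of 13826 genes tested with limma, 1041 (7.53%) were called at a Benjamini-Hochberg adjusted p under 0.05. At an unadjusted p under 0.05, 3491 of the 13826 passed, the background for the list counts at that threshold below. In A/J tumours 659 (4.77%) were higher and 382 (2.76%) lower. The 2 groups did not overlap in 1031 of the called genes, and over all tested genes they did not overlap in 34.3%. With quantile normalization 982 genes were called, and the share of calls that were higher in A/J was 51.8% in place of 63.3%.

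**Figure D1:**
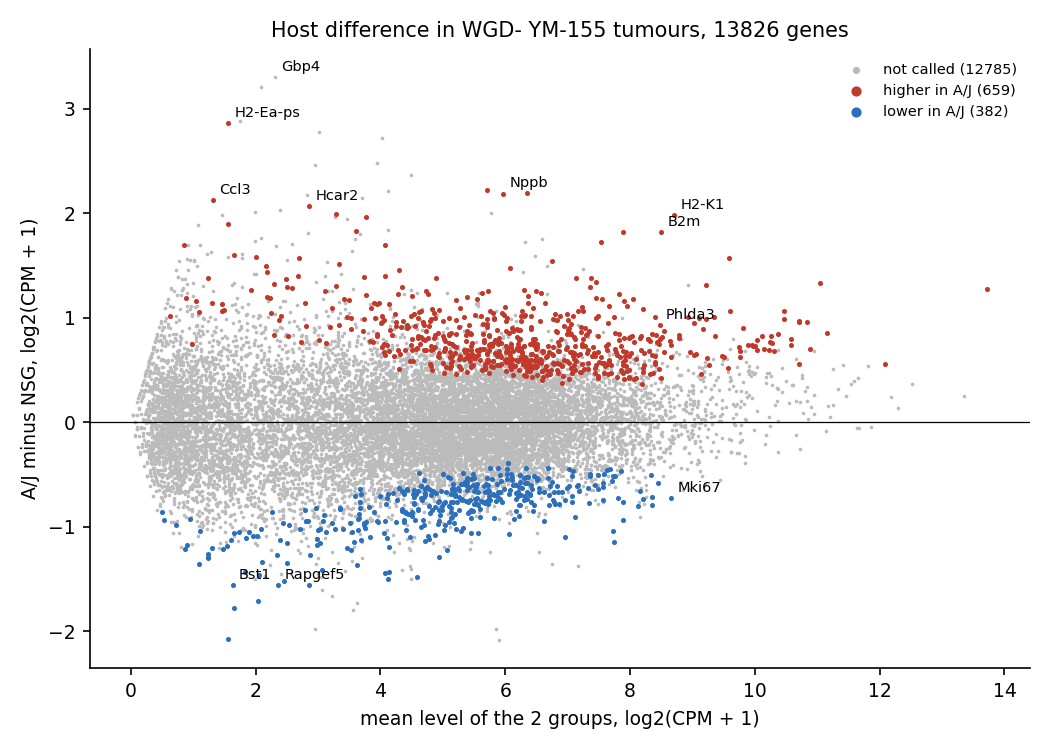
Difference between hosts (A/J minus NSG, log2(CPM + 1), vertical axis) against the mean level of the 2 groups (horizontal axis) for 13826 genes in WGD- YM-155 tumours, 1 point a gene; red genes were called higher and blue genes lower in A/J. Gbp4 has the widest named difference (3.30) and was not called, while H2-K1, at a high level, was.

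The count of calls depended on single libraries. It was 75 without A/J replicate 1, 310 without A/J replicate 2, 188, 102 and 518 without NSG replicates 1, 2 and 3, and 986 without A/J replicate 3. A set of 45 genes was called in each of these 6 fits and is described further on. The host difference also followed gene length. Genes called higher in A/J had a median exon length of 2.62 kb and genes called lower 7.20 kb, against 4.29 kb over all tested genes. The mean level of long genes minus that of short genes was 0.553, 0.546 and 0.597 in the A/J libraries and 1.13, 0.937 and 0.849 in the NSG libraries, without overlap. With the length trend of each library removed, 563 genes were called, 485 of them among the 1041. With that length score as a covariate in the limma model no gene was called, 1291 passed an unadjusted p under 0.05, and 1039 of the 1041 kept their sign. The score is computed from the same levels and does not overlap between the hosts, so this fit cannot separate length from host. In vehicle tumours the same covariate took 4768 calls to 0. The part of length in the other results was not tested, and calls that were lost with the trend removed are given beside the gene lists below.

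**Figure D2:**
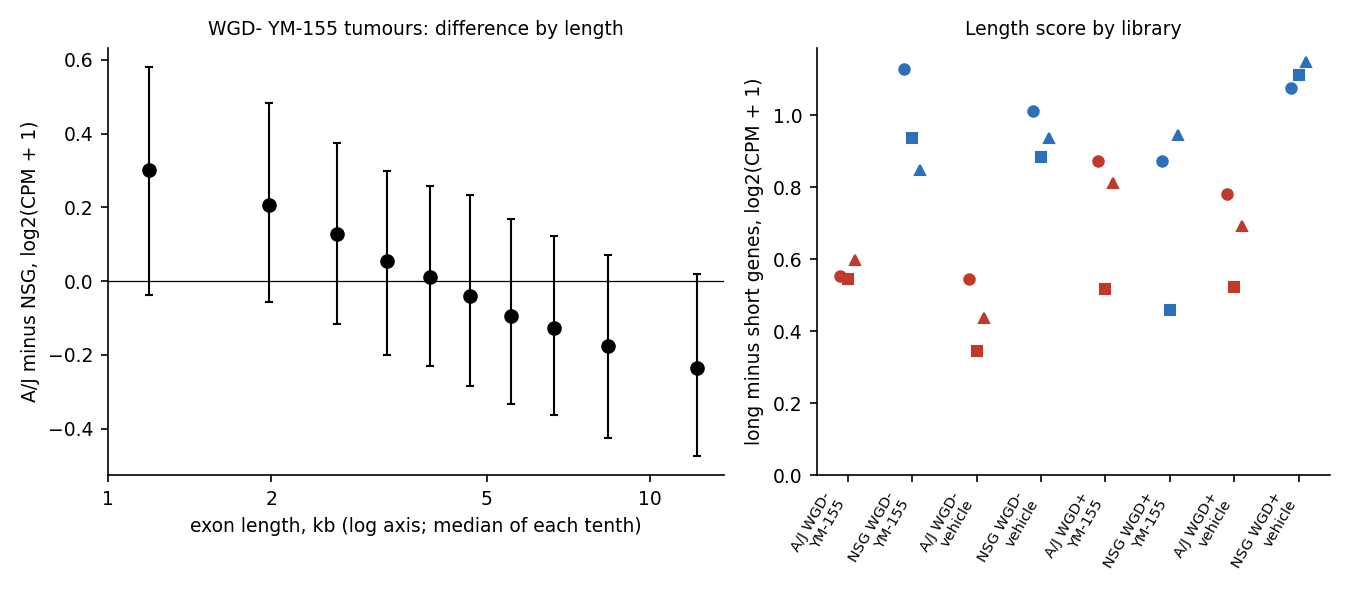
Left, median host difference (A/J minus NSG, log2(CPM + 1)) in 10 bins of tested genes by exon length (log axis, kb), with bars from the lower to the upper quartile of genes; it falls from 0.30 in the bin of shortest genes to -0.24 in the bin of longest. Right, mean level of long genes minus that of short genes in each of the 24 libraries, by group, with 1 marker a replicate (circle 1, square 2, triangle 3); the A/J WGD- libraries lie under the NSG WGD- libraries.

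MHC class I presentation held the most calls of the 27 gene lists. All 15 tested members of its 18 genes were higher on average in A/J tumours, with a median difference of 1.73 (over all tested genes the median was -0.0039). The test called 6 of them higher and none lower, H2-K1, H2-D1, B2m, Psmb8, Psme1 and Psme2, where 4.77% of all genes were called higher. The other members, H2-Q6, H2-Q7 and H2-T22, were listed at 0 in all 6 libraries, and H2 genes have near-identical copies, so their reads may be split or lost. The mean level of the list was 5.96, 8.32 and 6.20 in the A/J libraries and 5.01, 5.29 and 5.19 in the NSG libraries. The groups did not overlap, and A/J replicate 2 lay more than 2 units above the other A/J libraries. It was the highest of the 6 libraries for 15 of 15 members.

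The promoters of 3 interferon-responsive genes called higher and of Bax, a p53 target described below, are printed to show the elements such genes carry, and they were chosen after their values were seen. They run from 250 bases before to 50 bases after the start in RefSeq on GRCm38.p6, 5′ to 3′ on the gene's strand. Capitals mark, in B2m (chr2:122147437-122147736, plus strand), a match to the interferon-stimulated response element (GAAA, any 2 bases, GAAA) at position -139. In Psmb8 (chr17:34197945-34198244, plus strand) they mark a match to the gamma-activated site TTCNNNGAA at -97. In Oas1a (chr5:120907476-120907775, minus strand) they mark a gamma-activated site at -98 and, further on, 2 overlapping response elements. In Bax (chr7:45466849-45467148, minus strand) they mark a p53 half-site at -201.
B2m: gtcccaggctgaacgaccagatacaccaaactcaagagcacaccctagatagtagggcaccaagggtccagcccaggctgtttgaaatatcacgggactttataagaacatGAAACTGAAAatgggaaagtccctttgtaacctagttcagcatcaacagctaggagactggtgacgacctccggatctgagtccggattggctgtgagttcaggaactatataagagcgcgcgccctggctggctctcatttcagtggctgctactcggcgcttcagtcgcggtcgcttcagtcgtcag
Psmb8: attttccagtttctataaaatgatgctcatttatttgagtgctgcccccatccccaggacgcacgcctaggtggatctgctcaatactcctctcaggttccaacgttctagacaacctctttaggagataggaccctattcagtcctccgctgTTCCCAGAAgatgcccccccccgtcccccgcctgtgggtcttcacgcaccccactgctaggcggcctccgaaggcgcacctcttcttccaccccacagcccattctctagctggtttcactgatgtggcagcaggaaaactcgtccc
Oas1a: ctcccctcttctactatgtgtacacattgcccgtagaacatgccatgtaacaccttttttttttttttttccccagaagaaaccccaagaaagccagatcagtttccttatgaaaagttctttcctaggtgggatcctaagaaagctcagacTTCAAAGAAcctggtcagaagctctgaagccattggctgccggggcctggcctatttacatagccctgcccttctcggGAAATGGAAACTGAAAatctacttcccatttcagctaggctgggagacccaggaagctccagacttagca
Bax: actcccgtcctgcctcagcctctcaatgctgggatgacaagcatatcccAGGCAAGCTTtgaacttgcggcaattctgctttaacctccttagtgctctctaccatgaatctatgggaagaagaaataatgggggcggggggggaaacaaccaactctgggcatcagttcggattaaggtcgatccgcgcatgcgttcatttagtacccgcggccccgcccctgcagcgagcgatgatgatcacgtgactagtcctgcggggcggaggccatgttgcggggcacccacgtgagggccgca

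On both strands, the gamma-activated site was found in 8.298% and the response element in 3.443% of 32851 RefSeq promoters of this length. Counted likewise by promoter, the response element was found in 10 of 15 promoters of interferon gamma response genes. For type I interferon genes it was found in 10 of 18 promoters and for MHC class I genes in 5 of 18. The gamma-activated site was found in 5, 3 and 1 of these promoters. A match is a run of letters and shows no binding.

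H2-K1 and H2-D1 encode class I heavy chains, which present peptides to CD8 T cells. H2-K1 (chromosome 17, 33996017 to 34000347, mm10, minus strand) was at 8.78, 11.36 and 8.97 in A/J tumours and at 7.47, 7.93 and 7.75 in NSG tumours. The means were 9.70 ± 1.43 and 7.72 ± 0.23 (SD, n = 3 each), a difference of 1.99 (SE 0.59, adjusted p = 0.0463). H2-D1 (chromosome 17, 35262730 to 35267499, plus strand) was at 6.92, 8.75 and 6.67 against 4.84, 5.33 and 5.59, and rose by 2.19 (SE 0.58, adjusted p = 0.0317). In both genes each A/J library lay above each NSG library and replicate 2 was the highest. B2m, which encodes the light chain all class I molecules share, was at 8.67, 10.94 and 8.62 in A/J tumours and at 7.35, 7.61 and 7.79 in NSG tumours. It rose by 1.82 (SE 0.50, adjusted p = 0.0341).

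Psmb8 encodes an immunoproteasome subunit and stood at 5.84, 8.58 and 6.02 in A/J tumours against 4.29, 4.94 and 4.54 in NSG tumours. It rose by 2.22 (SE 0.62, adjusted p = 0.0369). Psme1 and Psme2 encode the 2 subunits of the proteasome activator PA28. Psme2 was at 7.14, 8.27 and 7.13 against 5.83, 5.91 and 6.18 and rose by 1.54 (SE 0.32, adjusted p = 0.0128), and Psme1 rose by 1.11 (SE 0.25, adjusted p = 0.0169). These genes did not overlap between hosts. Tap1 and Tap2, the peptide transporter, differed by 2.0 (adjusted p = 0.0655) and 1.73 (adjusted p = 0.0585) and did not pass. Nlrc5, the class I transactivator, was at 1.31, 5.97 and 2.92 in A/J and 1.01, 1.52 and 1.59 in NSG tumours, so that A/J replicate 1 lay within the NSG range.

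The number of class I members called higher was 8 without A/J replicate 3, 2 without A/J replicate 1, 1 without A/J replicate 2, and 1, 0 and 2 without NSG replicates 1, 2 and 3. Without A/J replicate 2 the median difference of the list was 1.02. With the length trend removed 3 members were called and the median was 1.49. In a limma fit of the 2 groups alone 1 was called.

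**Figure D3:**
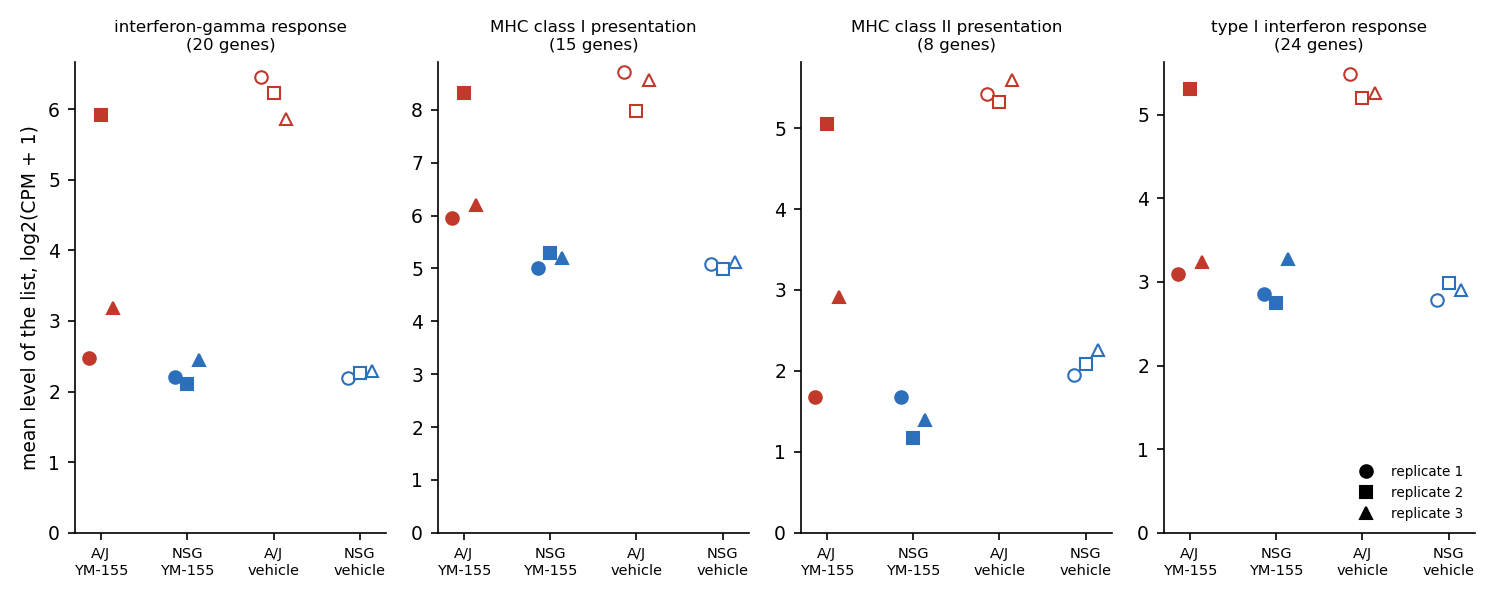
Mean level of 4 gene lists (log2(CPM + 1)) in each of 12 WGD- libraries, by host (red A/J, blue NSG) and treatment (filled YM-155, open vehicle), with 1 marker a replicate. Under YM-155, A/J replicate 2 lies near the A/J vehicle libraries in all 4 lists, and A/J replicates 1 and 3 lie closer to the NSG libraries.

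The interferon gamma response list had no call in either direction, with 20 of 22 members tested, and 1 member was called higher without A/J replicate 3. By limma 12 of the 20 passed an unadjusted p under 0.05, all higher in A/J, where 3491 of all 13826 genes passed. Limma with voom on the recovered reads called none. The median difference was 1.57, and 19 of the 20 were higher on average in A/J. The mean level of the list was 2.48, 5.92 and 3.18 in A/J tumours and 2.21, 2.11 and 2.44 in NSG tumours. A/J replicate 2 was the highest library for 20 of 20 members, and without it the median difference was 0.62. Gbp4, a guanylate binding protein gene, was at 2.15, 6.73 and 2.97 in A/J and at 0.66, 0.52 and 0.78 in NSG tumours. Its difference was 3.30 (SE 1.01, adjusted p = 0.0528), and the groups did not overlap. Gbp2b was at 3.68, 8.28 and 4.19 against 2.70, 2.36 and 2.92 (difference 2.72, adjusted p = 0.10). Cd274, which encodes the checkpoint ligand PD-L1, was at 1.65, 4.92 and 2.92 against 1.11, 2.05 and 1.28. In these genes A/J replicate 2 stood far above replicate 1, which lay within the NSG range for Cd274. Nos2, the inducible nitric oxide synthase gene, was the 1 member lower on average in A/J, by 0.67 with an adjusted p of 0.530.

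In WGD- vehicle tumours, whose libraries are others, 19 interferon gamma response members were called higher in A/J and the median difference was 3.69. There 16.2% of all genes were called higher. The mean level of the list ran from 5.86 to 6.45 in the A/J vehicle libraries and from 2.20 to 2.30 in the NSG vehicle libraries. The A/J YM-155 replicate 2 thus lay within the range of A/J vehicle tumours, while replicates 1 and 3 lay below it. The difference between the host effects under YM-155 and vehicle was tested as an interaction and passed for no member.

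MHC class II presentation had 8 of 10 members tested and 2 called higher (4.77% over all genes), with a median difference of 2.02. H2-Ea-ps, the E alpha gene, whose expression is known to differ between H2 haplotypes of mouse strains, had 6, 188 and 54 reads in A/J tumours and 0, 0 and 2 reads in NSG tumours. Its level rose by 2.87 (SE 0.81, adjusted p = 0.0397). H2-DMb1, a subunit of the molecule that loads peptides on class II, was at 1.86, 3.92 and 1.72 against 0.37, 0.78 and 0.65 and rose by 1.90 (SE 0.58, adjusted p = 0.0479). Both were apart between hosts, and neither was called with the length trend removed. Cd74, the invariant chain, was at 2.44, 7.25 and 4.65 in A/J and at 3.01, 2.32 and 2.55 in NSG tumours, with overlap (difference 2.15, adjusted p = 0.195). H2-Ab1 was at 2.30, 6.08 and 4.15 against 1.85, 1.19 and 2.10. Without A/J replicate 2 no class II member was called and the median was 1.04. None was called without NSG replicate 1, 2 or 3, in the fit of the 2 groups alone, or by voom. Without A/J replicate 1 or 3, 1 member was called.

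All 24 type I interferon response genes were tested, and 1 was called, higher in A/J, a share near the 4.77% of all genes. Oas1a, a sensor of double-stranded RNA, was at 5.29, 6.59 and 5.56 in A/J tumours and at 4.40, 4.83 and 4.95 in NSG tumours. It rose by 1.09 (SE 0.29, adjusted p = 0.0306), without overlap. It was not called without A/J replicate 2, without NSG replicate 1 or 2, with the length trend removed or in the fit of the 2 groups alone. The median of the list was 0.99, and 0.33 without A/J replicate 2. Outside the lists, Ube2l6, the enzyme that conjugates ISG15, rose by 1.83 (SE 0.49, adjusted p = 0.0318), and Apol9b rose by 1.99 (SE 0.58, adjusted p = 0.0440). Neither was called without A/J replicate 2, which was the highest library for both. Of the 6 fits that leave out a library, Ube2l6 was called in 2 and Apol9b in 1.

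Lymphocyte transcripts were scarce in both hosts. In bulk RNA, fewer cells of a type and less RNA per cell cannot be told apart. Of the 17 cytotoxic and NK cell genes, 13 had 0 reads in all 3 NSG libraries, where 3 reads correspond to at most 0.433 CPM. Gzmb, which encodes granzyme B, had 1, 58 and 0 reads in the A/J libraries, and Ifng had 0, 12 and 1. For both genes most reads were in A/J replicate 2, the library with the highest interferon and antigen presentation levels. By library, 10, 2 and 8 of the 17 genes had 0 reads in A/J tumours and 14, 14 and 15 in NSG tumours. The summed level of the list was 42.7, 56.5 and 32.8 CPM in A/J tumours and 20.5, 22.5 and 28.1 CPM in NSG tumours. A single gene, Klrb1c, made up most of that sum in each library except A/J replicate 2, with 220, 142 and 200 reads in A/J and 95, 111 and 139 in NSG tumours. Klrb1c, the NK1.1 receptor gene, was at 5.21, 4.54 and 4.80 against 3.88, 4.08 and 4.39. It rose by 0.74 (SE 0.18, adjusted p = 0.0228), and it was detected in all 3 NSG libraries although that host lacks NK cells. The call was lost without A/J replicate 1 and without NSG replicate 1 or 2. Of the T cell list, Cd3e had 2, 5 and 0 reads in A/J and 0, 0 and 1 in NSG tumours, and Cd8a had 5, 15 and 1 against 0, 2 and 0. None of the 11 T cell genes tested was called by limma over all libraries or by voom, and 1 of them passed an unadjusted p under 0.05. Without A/J replicate 3, 1 was called higher. Foxp3 was at 3.44 to 3.84 in the NSG libraries, a host without mature T cells. The part of lymphocytes in the interferon and presentation differences was not tested.

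Il2rg, the common cytokine receptor chain that NSG hosts lack, was at 1.86, 3.09 and 1.72 in A/J tumours and at 1.20, 0.89 and 1.66 in NSG tumours. The groups did not overlap, and the difference was 0.97 (SE 0.33, adjusted p = 0.0695). The table does not separate transcripts of tumour and host. Prkdc was at 4.02, 4.28 and 3.93 against 4.40, 4.67 and 4.32 (adjusted p = 0.387). None of 12 common gamma chain genes was called by limma over all libraries or by voom. By limma 3 passed an unadjusted p under 0.05, where 3491 of all 13826 genes did. Without A/J replicate 3, 1 was called higher, and without NSG replicate 3 or without the libraries that stand apart 1 was called lower.

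The p53 target list had 4 of 12 members called higher, where 4.77% of all genes were, and none lower, with a median difference of 0.30. p53 is a transcription factor activated by DNA damage and other stress, and its targets arrest the cell cycle or promote apoptosis. Phlda3, an inhibitor of AKT signalling (chromosome 1, 135766119 to 135769136, plus strand), was at 8.86, 9.04 and 8.93 in A/J tumours and at 8.03, 8.11 and 7.89 in NSG tumours. It rose by 0.93 (SE 0.16, adjusted p = 0.00496) and was called whichever of the 6 libraries was left out. Bax, a pore-forming protein of apoptosis, was at 8.74, 8.49 and 8.47 against 7.62, 7.83 and 7.84 and rose by 0.81 (SE 0.21, adjusted p = 0.0241). Cdkn1a, the cell cycle inhibitor p21, was at 8.22, 8.45 and 7.97 against 6.99, 7.73 and 7.55 and rose by 0.79 (SE 0.21, adjusted p = 0.0299). The hosts did not overlap in these genes, and A/J replicate 2 was the highest of the 6 libraries for 8 of the 12 targets. The count of calls was 1 without A/J replicate 1 or 2 or without NSG replicate 1 or 2, 2 without NSG replicate 3 and 3 without A/J replicate 3. Bax and Cdkn1a were among those lost without A/J replicate 2.

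Bbc3, which encodes PUMA, rose by 1.20 (SE 0.36, adjusted p = 0.0445) and was called in none of the 6 fits that leave out a library. The other 8 targets, among them Mdm2 (0.26), Ccng1 (0.02) and Sesn2 (-0.40), did not pass. With the length trend removed 2 targets were called, and Bax was not among them. The p53 half-site printed for Bax was found in 8.356% of RefSeq promoters and in 6 of 13 promoters of the listed targets. Those 6 belonged to 5 of the 9 targets with an entry.

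Birc5, the gene set against YM-155, was at 7.10, 6.54 and 7.12 in A/J tumours and at 6.70, 6.82 and 7.05 in NSG tumours, a difference of 0.06 (SE 0.18, adjusted p = 0.861). The groups overlapped. Among 16 genes of the inhibitor of apoptosis and BCL2 families, 2 were called, both higher (4.77% over all genes). Neither was called without A/J replicate 1 or 2 or without NSG replicate 1 or 2, and 1 of the list was called with the length trend removed. Bcl2l1, the gene of the survival protein BCL-XL, was at 8.50, 8.48 and 7.79 against 7.19, 7.18 and 7.37 and rose by 1.01 (SE 0.26, adjusted p = 0.0262). Bad, a pro-apoptotic member, was at 5.70, 5.74 and 5.75 against 5.18, 5.02 and 5.35 and rose by 0.54 (SE 0.14, adjusted p = 0.0252). The 2 called genes act in opposite directions on cell survival.

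Cell cycle genes leaned the other way. Of 15 genes of G2 and mitosis 14 were lower on average in A/J tumours, 2 were called lower (2.76% over all genes), and the median difference was -0.45. Mki67, the proliferation marker, was at 8.11, 8.18 and 8.59 in A/J and at 9.0, 9.10 and 8.95 in NSG tumours, and fell by 0.72 (SE 0.16, adjusted p = 0.0158). Kif11, a mitotic kinesin, was at 6.03, 5.97 and 6.59 against 7.0, 6.72 and 6.88 and fell by 0.66 (SE 0.20, adjusted p = 0.0463). Among 15 DNA replication genes 13 were lower on average and 1 was called, Cdc6, which loads the replicative helicase. It was at 4.19, 4.84 and 5.34 against 5.21, 5.77 and 5.66, with overlap, and fell by 0.76 (SE 0.22, adjusted p = 0.0400). Quantile normalization called 6 of the first list and 4 of the second lower, with both medians in the same direction. Neither list had a call without A/J replicate 1 or 2 or without NSG replicate 1 or 2, and without NSG replicate 3 the counts were 1 and 0. Without A/J replicate 3 they were 5 and 4. With the length trend removed 2 of the first list and 0 of the second were called. A/J replicate 3 was the closest to NSG in both lists.

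**Figure D4:**
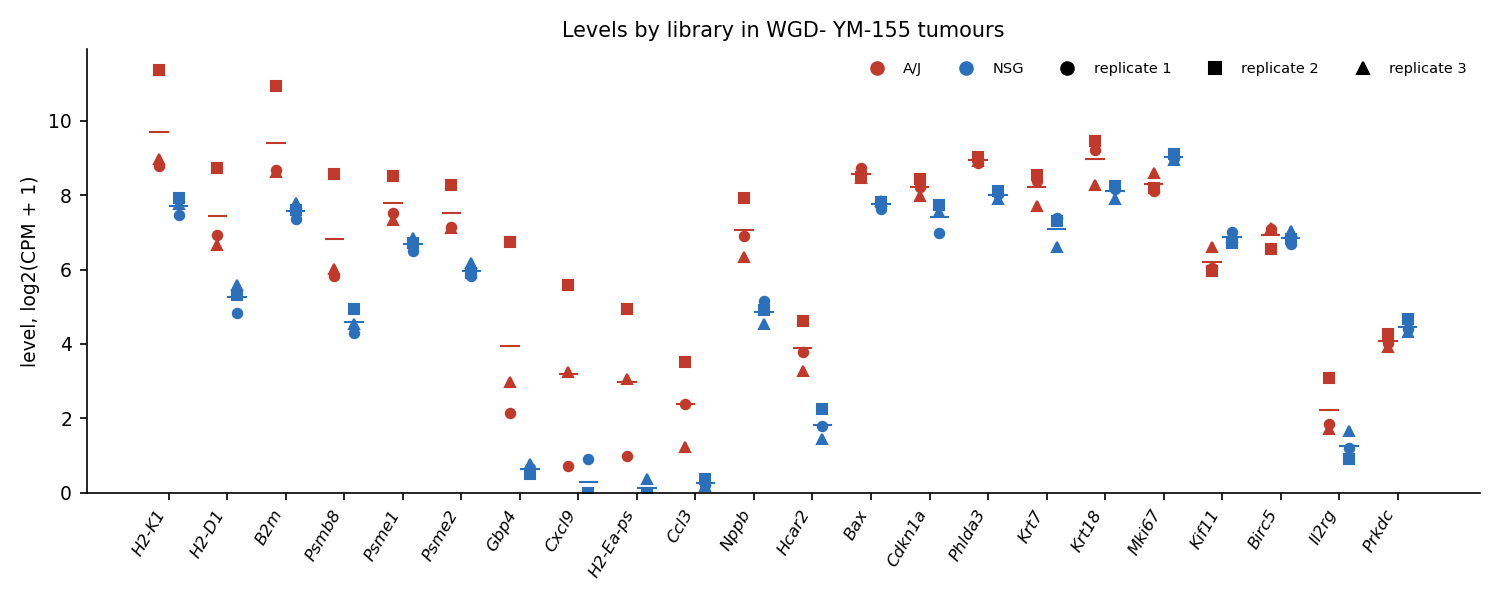
Levels (log2(CPM + 1)) of 22 genes named in the text in the 6 libraries; each marker is a library (red A/J, blue NSG, shape by replicate) and each short line a group mean. A/J replicate 2 (square) is far above the other A/J libraries for presentation and interferon genes, and the A/J markers lie above the NSG markers for Bax, Cdkn1a and Phlda3.

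Of 12 epithelial genes 4 were called higher in A/J (4.77% over all genes) and none lower. Krt7, a simple epithelial keratin, was at 8.39, 8.55 and 7.71 against 7.39, 7.30 and 6.60 and rose by 1.12 (SE 0.27, adjusted p = 0.0223). Krt18 and its partner Krt8 rose by 0.88 (adjusted p = 0.0245) and 0.74 (adjusted p = 0.0367). The tight junction gene Cldn4 was at 4.77, 6.02 and 3.45 against 2.20, 3.0 and 3.15 and rose by 1.96 (SE 0.57, adjusted p = 0.0437). The basal keratins Krt5 and Krt14 differed by 0.50 and 0.58 and did not pass. The mean level of the list was 6.67, 7.20 and 6.53 in A/J and 6.06, 6.44 and 6.11 in NSG tumours, so epithelial transcripts were present in all 6 libraries. The 4 calls became 1 with the length trend removed, and the count was 0 without A/J replicate 1 or 2 or without NSG replicate 2 or 3, and 1 without NSG replicate 1.

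Stromal and myeloid genes were not called in the fit over all groups. Of 22 fibroblast and matrix genes 17 were lower on average in A/J, with a median of -0.83. By limma 7 passed an unadjusted p under 0.05, where 3491 of all 13826 genes did. None passed an adjusted one, and voom called none. In the fit of the 2 groups alone 1 was called lower, and without the 2 libraries that stand apart 1 was called higher and 4 lower. Col6a3 was at 5.25, 5.62 and 5.93 against 6.90, 6.04 and 6.45 (difference -0.87, adjusted p = 0.0852). NSG replicate 1 was the highest library for 17 of the 22 genes, and without it the median was -0.49. None of 20 macrophage and monocyte genes was called by limma over all groups or by voom, 1 passed an unadjusted p under 0.05, and the median was -0.03. On average 10 of the 20 were higher in A/J and 10 lower. Among the lower, Itgam, the myeloid integrin, was at 3.72, 3.53 and 3.18 against 4.42, 4.17 and 4.45 (adjusted p = 0.150). Neutrophil genes (9 tested, median -0.50) included the receptors Cxcr2, at 3.40, 3.20 and 3.34 against 4.05, 4.48 and 4.23 (adjusted p = 0.0838), and Csf3r. In the fit of the 2 groups alone 2 neutrophil genes were called lower, and 1 macrophage gene was called higher and 1 lower. Without the libraries that stand apart 2 neutrophil genes were called lower.

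Ccl3, a macrophage chemokine, was the 1 inflammatory gene called of 20 tested, a share near the 4.77% of all genes called higher. Its reads were 26, 66 and 10 in the A/J libraries and 1, 2 and 1 in the NSG libraries, which is near the floor. It was at 2.40, 3.51 and 1.23 in A/J tumours and at 0.19, 0.36 and 0.19 in NSG tumours. It rose by 2.13 (SE 0.43, adjusted p = 0.0107), and the call was lost without A/J replicate 1. No call by limma over all groups or by voom was made among complement, mast cell, eosinophil, dendritic cell, B cell, endothelial, adipocyte, muscle, hypoxia or unfolded protein genes. By limma 10 of these genes passed an unadjusted p under 0.05, where 3491 of all 13826 did. In the fit of the 2 groups alone 1 endothelial gene was called higher and 1 adipocyte gene lower, without A/J replicate 3 1 endothelial gene was called lower, and with quantile normalization 1 unfolded protein gene was called lower. The median of the hypoxia list was 0.18, and -0.12 with quantile normalization.

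Among the 6 libraries, liver transcripts marked 1 A/J library. Alb, the albumin gene, had 490, 74 and 8 reads in the A/J libraries and 6, 0 and 3 in the NSG libraries. A/J replicate 1 was the highest library for 10 of 10 liver genes, which held 0.0197% of its reads and at most 0.00312% in the other 5 libraries. None of the 10 was called by limma over all libraries or by voom, and 1 passed an unadjusted p under 0.05. Without A/J replicate 3, 1 was called higher. In the A/J WGD- vehicle libraries the liver genes held 0.00280, 0.180 and 0.0114% of the reads. There 7 of the 10 were called higher in A/J, where 16.2% of all genes were.

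Among called genes outside the lists, the naming rule gave Nppb and Hcar2, after Psmb8 and H2-D1, which are listed above. Nppb (chromosome 4, 147985788 to 147987205, plus strand), the gene of the natriuretic peptide BNP, was at 6.91, 7.94 and 6.34 in A/J and at 5.16, 4.92 and 4.54 in NSG tumours. It rose by 2.19 (SE 0.38, adjusted p = 0.00719). Hcar2 (chromosome 5, 123863570 to 123865499, minus strand), a receptor for nicotinic acid and beta-hydroxybutyrate, was at 3.79, 4.63 and 3.26 against 1.79, 2.24 and 1.44 and rose by 2.07 (SE 0.37, adjusted p = 0.00719). Both were apart between hosts and called whichever of the 6 libraries was left out.

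Among the genes lower in A/J, Rapgef5, an exchange factor for RAP GTPases, was at 1.21, 1.60 and 1.93 against 3.78, 2.75 and 2.90 and fell by 1.56 (SE 0.43, adjusted p = 0.0327). Ksr1, a scaffold of the RAF and MEK kinases, fell by 1.49 (adjusted p = 0.0287). Cit, the citron kinase of cytokinesis, was at 3.72, 3.81 and 4.03 against 5.53, 5.42 and 5.04 and fell by 1.48 (SE 0.38, adjusted p = 0.0250). Dcbld1 fell by 1.41 (adjusted p = 0.0127), and its call was lost without A/J replicate 1. Adgrb2, Zim1, Tarbp1 and Nav3 fell by 1.55, 1.52, 1.44 and 1.44. They, like Rapgef5, Ksr1 and Cit, were each called in at most 2 of the 6 fits that leave out a library.

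The 45 genes called in all 6 of those fits were chosen by that property after their values were seen, so their count is a description. They comprised 36 higher and 9 lower genes, and all 45 were also called with the length trend removed. Cd63, a tetraspanin of late endosomes, was at 11.19, 10.90 and 10.90 in A/J and at 9.96, 9.99 and 9.83 in NSG tumours and rose by 1.07 (SE 0.17, adjusted p = 0.00460). Npc2, Ctsh, Vamp8 and the proton pump subunit Atp6v1f rose by 0.83, 1.07, 1.07 and 1.19. Lgals3, the gene of galectin 3, was at 9.0, 9.11 and 8.27 against 6.98, 7.17 and 6.78 and rose by 1.82 (SE 0.34, adjusted p = 0.00867). Tspo, a mitochondrial outer membrane protein, was at 8.08, 8.23 and 7.90 against 6.69, 6.60 and 6.76 and rose by 1.39 (SE 0.18, adjusted p = 0.00114). In Cd63, Lgals3 and Tspo the hosts were apart by more than the range within either.

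The lower genes of that set included Mdc1 and Slx4, which act in the repair of DNA breaks and crosslinks, and Espl1, the separase gene. Mdc1 was at 4.96, 4.86 and 5.27 against 6.17, 6.03 and 6.06 and fell by 1.06 (SE 0.19, adjusted p = 0.00719). Slx4 was at 4.11, 4.28 and 4.26 against 5.31, 5.36 and 5.31 and fell by 1.11. Bst1, an enzyme of NAD metabolism on the cell surface, was at 0.86, 1.07 and 0.62 against 2.70, 2.28 and 2.24 and fell by 1.55 (SE 0.28, adjusted p = 0.00719). The ribosomal protein gene Rpl13a rose by 1.33, and its pseudogene copies make that count uncertain.

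Most genes called between hosts in WGD- YM-155 tumours had the same direction without the drug. In vehicle tumours limma called 4768 genes (34.5%). Of the 1041 genes called under YM-155, 804 were called there in the same direction (77.2% of the 1041 and 16.9% of the 4768), and 1015 had the same sign. The 2 comparisons share no library. These counts cover genes chosen by their calls under YM-155. Some list medians changed sign, among them that of neutrophil genes, which was -0.50 under YM-155 and 1.10 under vehicle. The 2 vehicle libraries that stand apart are both A/J. Without them only replicate 3 is left of the A/J WGD- vehicle group, so no count of calls is given for that fit. The interaction of host with treatment called no gene by limma or voom, and 1425 and 1271 genes passed an unadjusted p under 0.05. Without A/J vehicle replicate 3, 8 genes were called, all with a smaller or more negative host difference under YM-155.

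Named by smallest p in that interaction, Notum, a secreted Wnt inhibitor, was at 5.38, 4.55 and 4.81 in A/J and at 3.65, 3.52 and 2.48 in NSG YM-155 tumours. It rose by 1.70 (SE 0.37, adjusted p = 0.0148), and the host difference in vehicle tumours was -0.74 (interaction 2.44, SE 0.52, adjusted p = 0.449). Dlx1 had host differences of 0.59 under YM-155 and -1.31 under vehicle. Lat2 and Siglech, genes of myeloid and plasmacytoid dendritic cells, had host differences of -0.09 and -0.21 under YM-155 and 2.07 and 1.44 under vehicle, with the same adjusted p of 0.449. Of the 45 genes above, 43 were called in vehicle tumours in the same direction. The exceptions were Phlda3, with a host difference of 0.29 there, and Tnfrsf12a, with 0.88 under YM-155 and 0.00 under vehicle.

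In WGD+ YM-155 tumours the same host contrast called 5 genes (0.0362%), 1 higher (0.00723%) and 4 lower (0.0289%). Without the 2 libraries that stand apart, which enter through the shared spread, it called 28. Of the 5, Bst1 fell by 2.10 (SE 0.28, adjusted p = 0.0018) and is the 1 gene also called in WGD- tumours. The other 4 were Mcpt4, Rnase2a, Serpina3h and St6galnac4. Of the 1041 WGD- calls, 927 had the same sign in WGD+ tumours. The difference between the forms was itself tested and called no gene by limma or voom, while 1058 and 1109 genes passed an unadjusted p under 0.05. S100a4 rose by 1.02 in WGD- tumours and differed by -1.30 in WGD+ tumours (interaction 2.32, SE 0.41, adjusted p = 0.159). Phlda3 differed by -0.18 in WGD+ tumours (interaction 1.11, adjusted p = 0.225). Mturn and Apc had host differences of -0.79 and -0.52 in WGD- tumours and of 0.71 and 0.34 in WGD+ tumours. The MHC class I list had a median of 0.80 in WGD+ tumours, where A/J replicate 2 was again the highest A/J library, at 7.52 against 5.50 and 5.99.

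**Figure D5:**
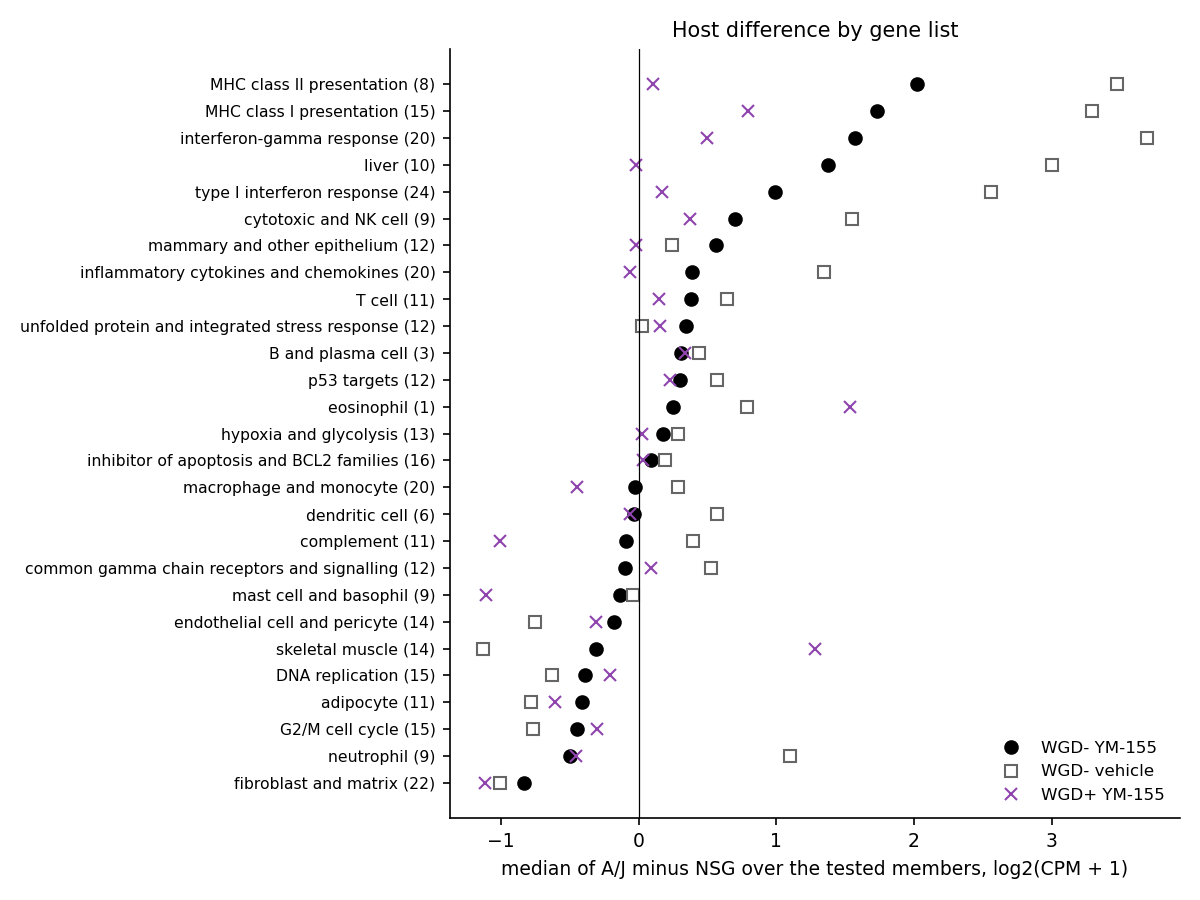
Median host difference (A/J minus NSG, log2(CPM + 1), horizontal axis) over the tested members of each of 27 gene lists (number tested in brackets) in WGD- YM-155 (filled circle), WGD- vehicle (open square) and WGD+ YM-155 tumours (cross). The antigen presentation and interferon lists lie at 0.99 to 2.02 in WGD- YM-155 tumours and at 2.56 to 3.69 in vehicle tumours, and the liver list, at 1.38 under YM-155, lies among them.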

How the data were processed

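Per the labels' protocols, RNA was extracted with a Qiagen RNeasy kit and libraries were made with a stranded Illumina TruSeq mRNA kit. STAR 2.5.1b, the build mm10 and edgeR are named in the submitters' processing notes, while the annotation and counting tool are not given there. The authors deposited log2 values for 24360 genes, which read as log2(CPM + 1) scaled by trimmed mean of M values over the 24 libraries of the experiment. Converted back, 100% of values came out as whole reads (tolerance 0.1), with depths of 3.23 to 7.75 M. The mm10 build is a C57BL/6 genome, and its effect on the polymorphic H2 genes of other strains was not tested. Symbols turned into dates (27, at most 0.221% of a library's reads) were left out, and 96.3% of symbols matched GENCODE M21, whose mm10 coordinates and exon lengths were used.

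Groups were taken from titles. The low-expression filter kept genes over 1 CPM in 3 or more libraries, and these were fitted in R 4.3.3 with limma 3.58.1 (a mean for each of 8 groups of 3, mean-variance trend, robust), so the spread is shared over all 24 libraries. The fit was tested on simulated data. The members and gene lists were chosen with earlier results of these data known. Named genes are Birc5, Prkdc and Il2rg; the called genes of largest difference, at most 8 a direction, if the groups are apart and the higher mean is 3 or more, without unnamed gene models; up to 4 called members of a list, or up to 2 with the smallest p; and for interactions up to 2 each way. Other genes were named after their values were seen. The alternatives were no filter, log2(2^value + 1), quantile normalization, only the groups compared, a replicate block, leaving out each library, and voom on the recovered reads. Those added after seeing the data were leaving out the 2 libraries that stand apart, removing the length trend, and the length score as a covariate. Some items are not reported here.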

Additional observations from a re-analysis of the deposited data

How the results depend on the processing

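The 1041 calls between hosts became 650 without the filter on low genes, 1661 without the 2 libraries that stand apart, 563 with the length trend removed and 0 with the length score as a covariate, and ran from 75 to 986 with 1 of the 6 libraries left out; fewer libraries were then compared, and the cause of the other shifts was not tested. The fit of only the groups compared called 1470, voom 1224, log2(2^value + 1) 1029 and quantile normalization 982. Among the 6 compared libraries, those of equal number deviated together with correlations of only -0.019 to 0.058. The best match was the library of equal number for 2 of the 6. In the vehicle comparison the same-numbered correlations were 0.024, 0.181 and 0.181, and in WGD+ YM-155 tumours 0.283, 0.232 and -0.008. Unequal numbers there ran from -0.302 to 0.186. Whether the numbers mark a shared batch is not stated and was not tested. With a replicate block over all libraries 1251 genes were called between hosts and 2 in the interaction of host with form, in place of 0. The interaction of host with treatment called 0 to 8 genes with 1 library left out, and that of host with form 0 to 1. Of 34 called genes named by the rule, 3 (Nppb, Hcar2 and Phlda3) were called in each fit that left out 1 of the 6 libraries, 16 with the length trend removed and 28 by voom. Nav3 changed sign with the length score as a covariate, to 0.0035. In WGD+ tumours the 5 calls between hosts became 28 without the libraries that stand apart. At 6.56 to 7.75 M reads a library, 1 CPM rests on few reads.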
